A study of Rattus norvegicus with 8 samples.

Results

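The livers described here came from 4 obesity-prone (OP) Wistar rats, the arrays titled OP1 to OP4, out of 8 arrays in the series. The arrays were taken by title alone. The series set OP rats and obesity-resistant (OR) rats, both kept on a high-fat diet for 16 weeks, against rats kept on standard chow for the same time. Liver total RNA was amplified as aminoallyl cRNA and hybridised to 2-colour spotted arrays, 1 high-fat rat per array in the green dye Cy3. The red dye Cy5 carried, on every array, 1 pool made of equal amounts of RNA from 4 chow-fed rats. No array had the dyes swapped. The labels give no age, sex or body weight, and no rule by which a rat was classed as obesity-prone.

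Outbred rats on the same high-fat diet differ widely in weight gain, and the ends of that range are commonly called obesity-prone and obesity-resistant. The liver takes up dietary fat, burns it in mitochondria and peroxisomes, stores part of it in droplets and exports the rest in lipoproteins. It also makes fatty acids and cholesterol of its own, and both routes are adjusted to the diet largely through transcription. The files do not pair spots with genes, so none of these pathways could be followed, lists of their genes could not be applied, and the tissue label could not be checked against liver markers. What the arrays show is how large the OP differences from the chow pool were, at which signal levels and places on the array they lay, and how far the 4 rats shared them.

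Each array holds 12288 spots in 48 blocks, in 12 rows and 4 columns of blocks. A spot is named by its place: Sr12Sc03R05C02 is block row 12, block column 3, and within that block row 5, column 2. Values are log2(Cy3/Cy5), rat over pool, after background correction and loess normalization within each array, so a value of 1 is 2-fold higher in the rat. The ratio follows the dyes as labelled. The authors' deposited values ran the other way. With their sign turned, 820 to 964 table rows could be matched to spots through the other 7 arrays, against 58 to 68 as deposited. Over the rows matched with the sign turned, the deposited values correlated with log2(Cy3/Cy5) of the array left out at r between -0.986 and -0.97. The series text states the ratio as green over red, so the deposited values conflict with that statement, and the reason was not tested. With the dyes the other way round, every higher would be a lower and every lower a higher.

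Of the 12288 spots, 11362 had enough signal and values to be tested, and 926 were left out. Signal stood above background at 87.7% to 96.0% of spots in Cy3 and 89.8% to 94.3% in Cy5 on the 4 OP arrays. Before normalization the median log2 ratio lay between -0.64 and -0.59, so Cy5 was the brighter channel on all 4. The images of OP1 and OP2 were quantified on one day and those of OP3, OP4 and OR1 on another. The slide numbers read from the image names put all 4 OP arrays in 1 run of numbers that holds no OR array. Whether that run of numbers stands for a batch was not tested.

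Compared with the chow pool, OP livers showed many small differences and few large ones. In limma, 4344 of 11362 probes had a Benjamini-Hochberg adjusted p under 0.05, which is 38.2% of those tested. Of these, 2132 (18.8%) were higher and 2212 (19.5%) lower in the rats, and 5482 probes had an unadjusted p under 0.05. Loess centres the ratios at each intensity and so bears on this balance; with median centring of each array in its place, 2621 were called higher and 3480 lower. The size of the called differences had a median of 0.28 on the log2 scale, a 1.21-fold change, and a 95th percentile of 0.67, or 1.59-fold. The smallest called difference was 0.10, a 1.08-fold change.

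The larger the difference asked for, the shorter the list became. At least 1.25-fold was reached by 1708 called probes (1007 higher, 701 lower) and at least 1.5-fold by 370 (209 higher, 161 lower), the latter 3.26% of the tested probes and 8.52% of the called ones. At least 2-fold was reached by 19 (13 higher, 6 lower) and at least 3-fold by 1. The number at 1.5-fold was 846 with median centring, which turned its balance to 375 higher and 471 lower, and 201 without OP4. A further 22 probes differed at least 1.5-fold on average without passing limma's test. The median SD between rats was 0.96 in those 22, against 0.36 in the 370.

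These tests set the mean of 4 OP rats against a pool that counts as 1 control sample. The spread between chow-fed rats is thus left out, and a dye effect of a probe stays in its ratio. All 8 arrays share 1 estimate of the spread, so the p-values measure the spread between rats within the OP and the OR group. In bulk liver RNA, fewer cells of a type and less RNA per cell cannot be told apart.

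**Figure D1:**
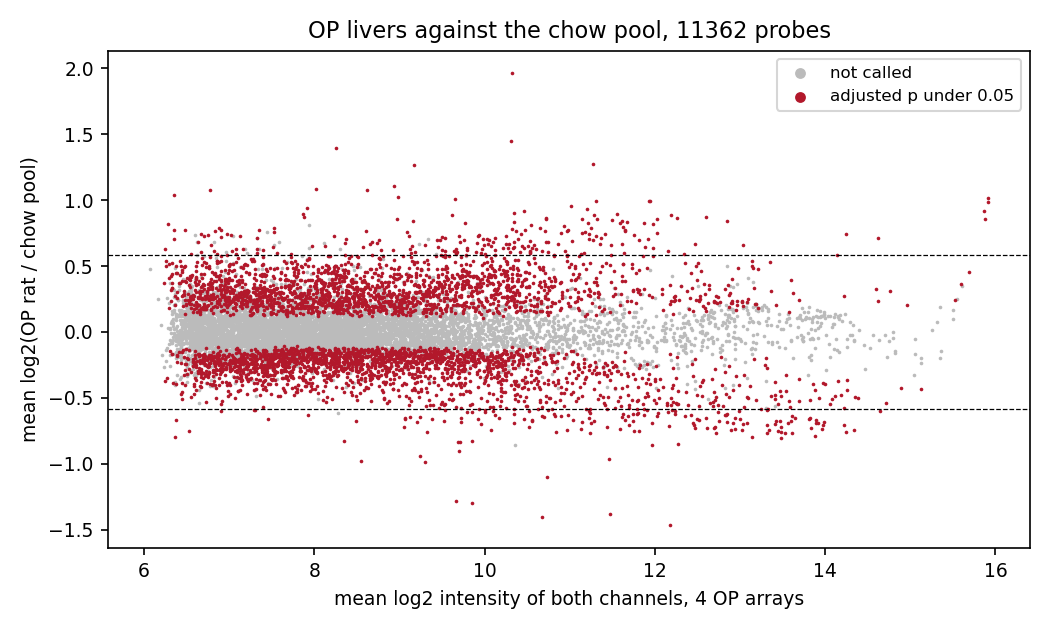
Mean log2(OP rat / chow pool) of each of the 11362 tested probes (vertical axis) against its mean log2 intensity over both channels of the 4 OP arrays (horizontal axis). Red points had a limma adjusted p under 0.05, grey points did not, and the dashed lines mark 1.5-fold; the red points outside the lines crowd towards the right under this normalization, and most called probes lie between the lines.

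The 4 spots that follow show what the ends of the range look like in single rats. They were chosen by rule as the largest ratio and the smallest p in each direction. Only probes with the same sign in all 4 rats and signal above background in both channels of all 4 arrays were eligible. The choice was made on the OP values, so it favours OP means further from the pool than the OR means. The intervals given for the differences between OP and OR are for single spots and are not adjusted for the number of probes tested.

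Spot Sr12Sc03R05C02 read 2.29, 1.79, 1.68 and 2.09 in OP1, OP2, OP3 and OP4. Every OP rat thus lay more than 3-fold above the pool, and no OP value overlapped those of the OR rats, which read 1.25, 1.58, 1.12 and 1.43. The OP mean was 1.96 ± 0.28 (SD, n = 4), a 3.90-fold difference from the pool (limma adjusted p = 0.000101). The OP mean exceeded the OR mean by 0.62 (95% interval 0.28 to 0.96), and limma's adjusted p for that difference was 0.074.

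Spot Sr02Sc04R14C10 read 1.36, 1.54, 1.43 and 1.47 in OP1 to OP4, with all 4 rats close together. Its mean of 1.45 ± 0.07 (SD, n = 4) was 2.73-fold above the pool (limma adjusted p = 4.15e-05). The OR rats averaged 1.10 ± 0.16 (SD, n = 4), all below the lowest OP rat, and the OP minus OR difference of 0.35 (95% interval 0.15 to 0.55) had a limma adjusted p of 0.0787.

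Spot Sr03Sc02R11C09 read -1.64, -1.67, -0.80 and -1.76 in OP1 to OP4. OP3 stood apart from the other rats, which were close together. The mean was -1.47 ± 0.44 (SD, n = 4), 2.76-fold below the pool (limma adjusted p = 0.000986). The spot was as low in OR rats, at -1.54 ± 0.36 (SD, n = 4), where the groups overlapped and the difference of 0.07 (95% interval -0.48 to 0.62) had a limma adjusted p of 0.89.

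Spot Sr09Sc04R12C11 read -0.89, -0.73, -0.86 and -0.92 in OP1 to OP4. All 4 rats were close to one another, and all were below every OR rat. The mean of -0.85 ± 0.08 (SD, n = 4) was 1.81-fold below the pool (limma adjusted p = 0.000148). The OR rats averaged -0.36 ± 0.10 (SD, n = 4), and the OP minus OR difference of -0.49 (95% interval -0.65 to -0.32) had a limma adjusted p of 0.0557. That was the smallest adjusted p of the OP against OR comparison, a value shared with at least spot Sr01Sc01R15C12. Across all probes, limma called 0 of 11362 (0%) between OP and OR, with 2285 at an unadjusted p under 0.05.

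How the size of an OP difference ran with the brightness of the spot depended on the processing. Probes were put into 10 intensity groups of equal size by mean intensity on the OP arrays, from group 1 (dimmest) to group 10 (brightest). As normalized here, the median absolute ratio stayed between 0.12 and 0.14 over groups 1 to 7 and was 0.15, 0.20 and 0.22 in groups 8, 9 and 10. With an offset of 0 in the background correction, or with median centring, the order of groups 1 and 10 turned: group 10 minus group 1 was 0.0821 as normalized here, -0.0715 with that offset and -0.0307 with median centring. Of the 370 called probes at least 1.5-fold from the pool, 163 lay in group 10 and 88 in group 9, together 67.8%, against 81 in groups 1 to 7. Groups 9 and 10 also held 9 of the 19 at least 2-fold. With an offset of 0, groups 9 and 10 held 264 of 752 (35.1%) and group 1 held 178, and with median centring they held 411 of 846 (48.6%) and group 1 held 213.

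The spread between rats followed a different course from the size. The median SD between rats was 0.13 in group 1, 0.09 in groups 6 and 7 and 0.14 in group 10. The share of probes called was 28.0% in group 1, 57.0% in group 9 and 47.9% in group 10. The ratio of median size to median SD was 1.89 in group 9, compared with 1.03 in group 1 and 1.51 in group 10. Median centring turned both orders, with 74.1% called in group 1, 64.9% in group 9 and 73.1% in group 10, and ratios of size to SD of 2.65 in group 1 and 2.50 in group 9.

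Values at the dim end changed with the background correction. With no offset added after background correction in place of 50, the median absolute ratio in group 1 was 0.30 instead of 0.14 and the SD between rats 0.27 instead of 0.13, and 752 instead of 370 called probes were at least 1.5-fold from the pool. The size of dim differences therefore depends on that setting, whereas group 10 changed little (0.23 instead of 0.22). With that offset of 0 the share called was 32.2% in group 1 and 54.8% in group 9.

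**Figure D2:**
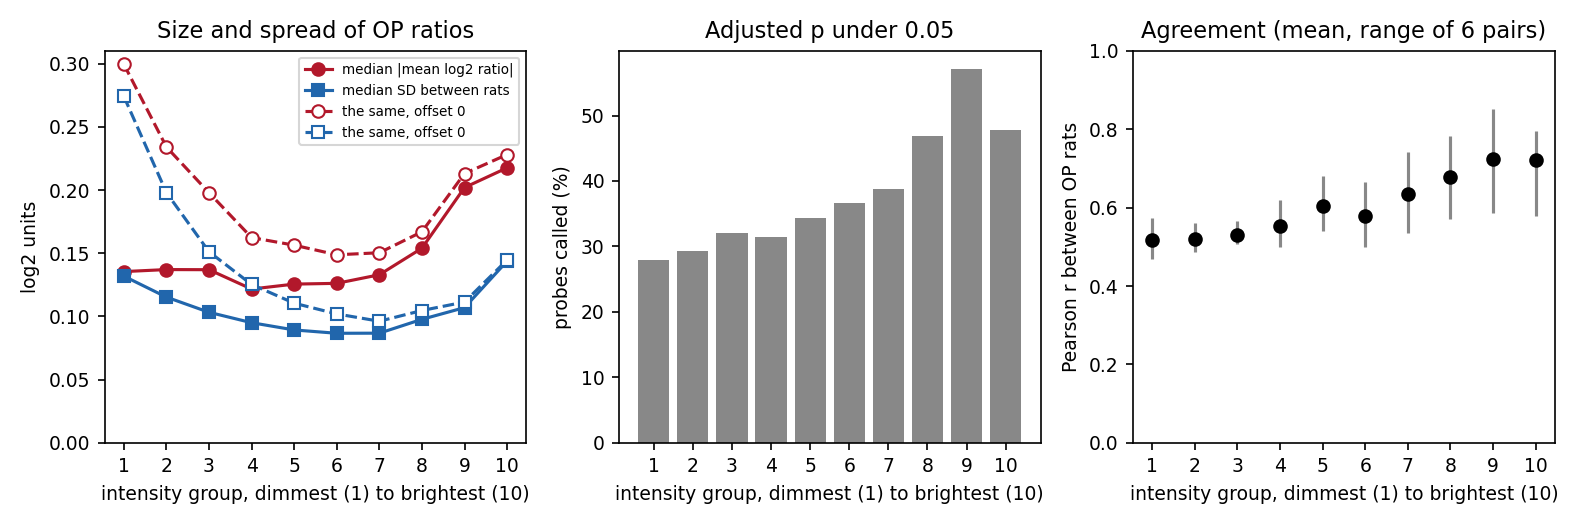
Size, spread and agreement of OP differences by intensity group, from the dimmest (1) to the brightest (10), 1136 or 1137 probes each. The left panel gives the median absolute mean log2 ratio (red) and the median SD between the 4 rats (blue), with an offset of 50 (filled) and of 0 (open); the middle panel gives the percent of probes with a limma adjusted p under 0.05, highest at 57.0% in group 9; the right panel gives Pearson's r between OP rats across probes, as the mean (dot) and range (line) of the 6 pairs, with means from 0.52 to 0.73.

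Group 10 was also the only one of the 10 groups with more lower than higher called probes at 1.5-fold, 101 against 62, while group 9 had 58 higher and 30 lower. The rats did not share this evenly. In group 10, OP4 alone had 68 probes at least 1.5-fold higher and 237 at least 1.5-fold lower, and OP2 had 79 higher and 141 lower. OP1 had 91 higher and 15 lower, and OP3 had 37 and 14. With median centring in place of loess, lower probes were in the majority there in all 4 rats, with 308, 320, 219 and 334 lower in OP1 to OP4, so the balance in each rat changed with the normalization. Loess had much to remove: before it, the median OP ratio was -0.21 in group 1 and -0.94 in group 10.

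The 237 bright probes that were low in OP4 were low in the other OP rats too, but less so. Their median ratio was -0.98 in OP4, by which they were picked, and -0.36, -0.53 and -0.38 in OP1, OP2 and OP3. In 220 of the 237 all of the other 3 rats were below the pool, yet only 5 were at least 1.5-fold lower in each of the other 3. Of the 237, 219 were called, against 47.9% of all probes in group 10, a share that the choice by OP4 favours. In the OR rats their medians were 0.26, -0.10, -0.06 and -0.03. Between 21.5% and 27.0% of them lay in each of the 4 block columns, and their rows within the blocks were not compared. Over all intensity groups, 138 probes at least 1.5-fold lower in OP4 lay in rows 8 to 12 of block columns 3 and 4, and 285 lay elsewhere. Those rows hold 16.7% of the tested probes.

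**Figure D3:**
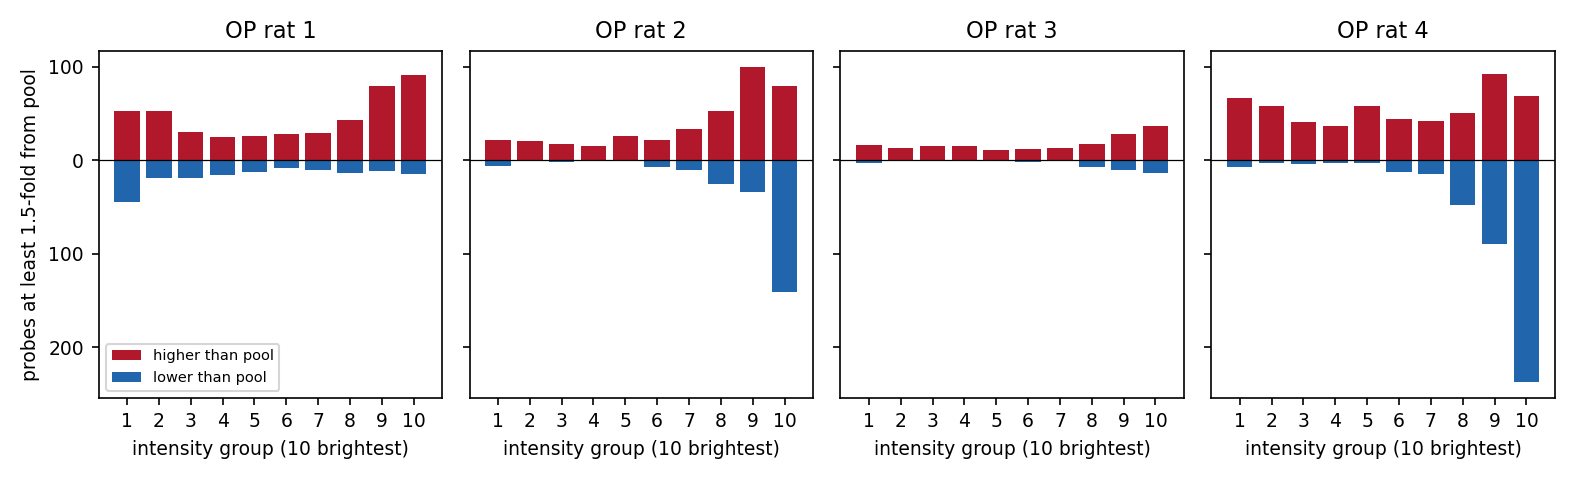
Number of probes at least 1.5-fold higher (red, upward) or lower (blue, downward) than the pool in each OP rat, by intensity group from the dimmest (1) to the brightest (10). The 237 lower probes of OP4 in group 10 stand out, followed by the 141 of OP2, while OP1 and OP3 have more higher than lower probes there.

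The direction of the ratio was compared among the 4 rats, whose ratios share 1 pool and 1 dye orientation, so shared pool or dye effects and shared liver differences cannot be told apart. Of 11283 probes with a value in every OP rat, 6547 (58.0%) had the same sign in all 4, 3017 higher and 3530 lower. The 4 OR rats, set against the same pool with the same dyes, had the same sign at 44.1% of their complete probes, a difference that was not tested. Cy5 signal stood above background at 80.9% to 91.7% of spots on the OR arrays, against 89.8% to 94.3% on the OP arrays. Of the OP probes, a further 3465 (30.7%) split 3 against 1, and 1271 (11.3%) split evenly. The odd rat in a 3-to-1 split was OP3 in 1073 probes (31.0%), OP1 in 884, OP4 in 760 and OP2 in 748. Of 4317 called probes with all values, 4080 (94.5%) had the same sign in all 4 rats and the other 237 in 3 of 4, a share that the test itself favours. Agreement did not by itself make a call: 2467 of the 6547 same-sign probes were not called, with a median absolute ratio of 0.12 against 0.28 in those that were.

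Differences that every rat reached on its own were fewer. All 4 rats were at least 1.25-fold above the pool at 260 probes and below it at 281. At 1.5-fold these counts were 18 and 18, and at 2-fold 3 and 1. The count of 370 at 1.5-fold thus describes averages, to which single rats contributed unequally. Taken alone, 8.61% of tested probes were at least 1.5-fold from the pool in OP4, 5.52% in OP1, 5.42% in OP2 and 1.90% in OP3. OP3 also had the smallest median absolute ratio, 0.12, against 0.14 in OP2, 0.18 in OP1 and 0.18 in OP4.

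Probes singled out in 1 rat could be read in the other 3. Of the probes at least 1.5-fold from the pool in OP4, 80.5% of 959 had the same sign in all of the other 3 rats. For OP3 the share was 73.2% of 213, for OP1 66.0% of 618 and for OP2 60.3% of 612. The average of the other 3 rats in the same direction had a median between 0.42 and 0.50, against medians of 0.74 to 0.82 in the rat that picked them. Values in the picking rat are raised by the choice, so the second number is the larger one by construction.

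Across all tested probes the ratios of any 2 OP rats were moderately alike. Pearson's r, across probes that share the pool, the dyes and the slides, ran from 0.55 (OP2 with OP3) to 0.70 (OP2 with OP4) with a mean of 0.62. Between OR rats, with the same pool and dyes, r averaged 0.33, a difference that was not tested. On OR2, OR3 and OR4, quantified on a day of their own, fewer spots had Cy5 signal above background than on any OP array. Between OP rats r was 0.62 for the 2 pairs quantified on the same day and 0.62 for the 4 pairs across days. The pairs with OP3 averaged 0.57 and the pairs without it 0.67. Besides the main diagonal, the plots of pairs show arms in which 1 rat lies near 0 while another is well above or below the pool.

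**Figure D4:**
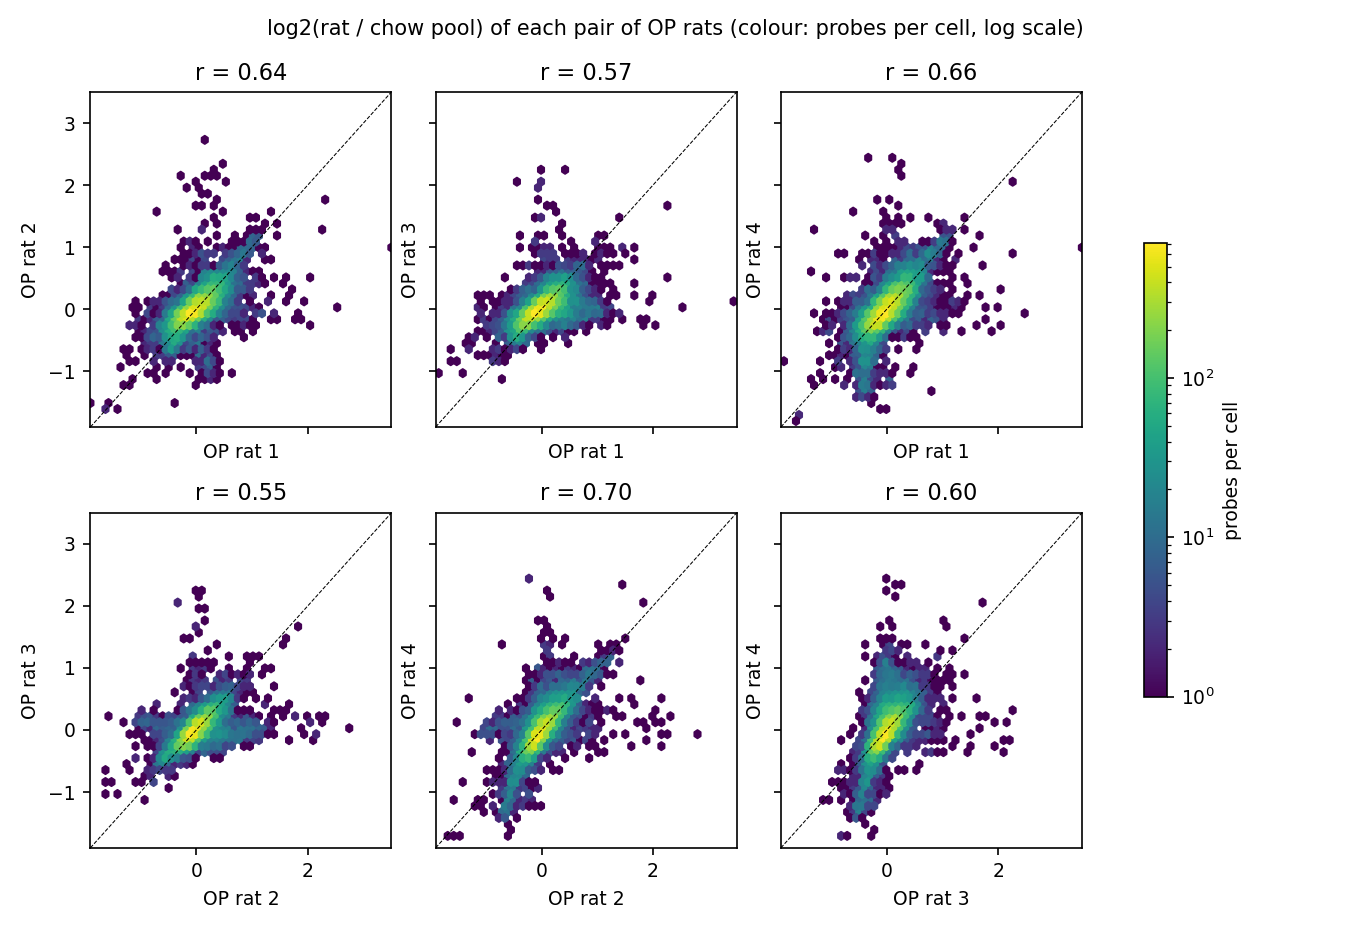
log2(rat / chow pool) of each of the 6 pairs of OP rats, 1 probe per point, binned, with colour for the number of probes per cell on a log scale and the dashed line marking equality. Every panel with OP3 has an arm along the OP3 = 0 line on the higher side of the other rat, and the panels of OP2 with OP1, OP3 and OP4 have a group near -1 in OP2 and near 0 in the other rat.

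The arm of OP3 was a set of probes that were high in every other OP rat. At 149 probes OP1, OP2 and OP4 were each at least 1.5-fold above the pool while OP3 lay within 0.3 of it on the log2 scale, limits set after the values were seen. Their medians were 0.82 in OP1, 0.90 in OP2 and 0.94 in OP4, against -0.01 in OP3. The same arrangement with OP1, OP2 or OP4 as the rat near 0 held for 2, 0 and 4 probes. On the lower side it held for 0, 0, 0 and 2 probes with OP1, OP2, OP3 and OP4 as the rat near 0.

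These probes make up much of the list of higher differences. Of the 149, 146 were called, against 38.2% of all tested probes, a share that the choice of the set favours. At 148 of them signal stood above background in both channels of all 4 OP arrays. Of the 209 probes called at least 1.5-fold higher, 107 (51.2%) belonged to the set, and only 62 were at least 1.5-fold higher in OP3 as well. In the OR rats the set had medians of 0.27, -0.13, -0.01 and 0.30 in OR1 to OR4. In raw signal above background the median in Cy3 was 1588, 1111 and 1219 in OP1, OP2 and OP4 and 720.2 in OP3, while the pool's Cy5 signal was 1702, 1126, 1221 and 1285.

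The set was not spread over the array. Of its 149 probes, 140 (94.0%) lay in rows 8 to 12 of the blocks in columns 3 and 4, a stretch that recurs in each of those 24 blocks and holds 16.7% of the tested probes. This stretch, also picked after the values were seen, held 111 of the 209 probes called at least 1.5-fold higher (53.1%) and 47 of the 161 called at least 1.5-fold lower (29.2%). Its probes were brighter, with a median log2 intensity of 9.36 against 8.09 elsewhere, and 33.0% of intensity group 10 lay in it. Whether its position, its brightness or the transcripts printed there go with the pattern was not tested.

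OP3 agreed less with the other rats inside this stretch than elsewhere. The stretch was picked on these same values, so the choice itself favours a lower agreement of OP3 inside it. Within it, r averaged 0.41 between OP3 and the other rats and 0.76 among OP1, OP2 and OP4. Over the 9470 probes elsewhere, the averages were 0.65 with OP3 and 0.63 without it. With loess fitted in each block separately (print-tip loess), the averages with OP3 were 0.41 inside and 0.64 outside, and 120 of the 129 probes with OP3 near 0 and the other rats high lay in the stretch. The share of probes with the same sign in all 4 rats was 48.5% inside and 59.9% outside, although 46.7% of probes were called inside and 36.6% outside.

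Outside the stretch the balance of large differences changed, a change that the choice of the stretch after seeing the values favours. The called probes at least 1.5-fold from the pool were 98 higher and 114 lower there, compared with 111 and 47 inside. OP3 still had the fewest probes at least 1.5-fold from the pool outside it, 165 higher and 30 lower, against 326 and 285 in OP4. Inside, OP3 had 12 higher and 9 lower, against 190 and 11 in OP1, 193 and 115 in OP2 and 229 and 138 in OP4.

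A second group in the same stretch set OP2 apart. At 94 probes OP2 was at least 1.5-fold below the pool while the other 3 rats lay above -0.3, and 73 of them (77.7%) were in rows 8 to 12 of block columns 3 and 4. Their median was -0.81 in OP2 and 0.16, 0.11 and 0.04 in OP1, OP3 and OP4. They were bright, with a median log2 intensity of 12.1. Of the 94, 2 were called, against 38.2% of all tested probes, a low share that the choice of the set favours. Probes high in OP2 alone, 58 in number, were dim instead, with a median of 7.65, and 5 of them lay in the stretch.

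**Figure D5:**
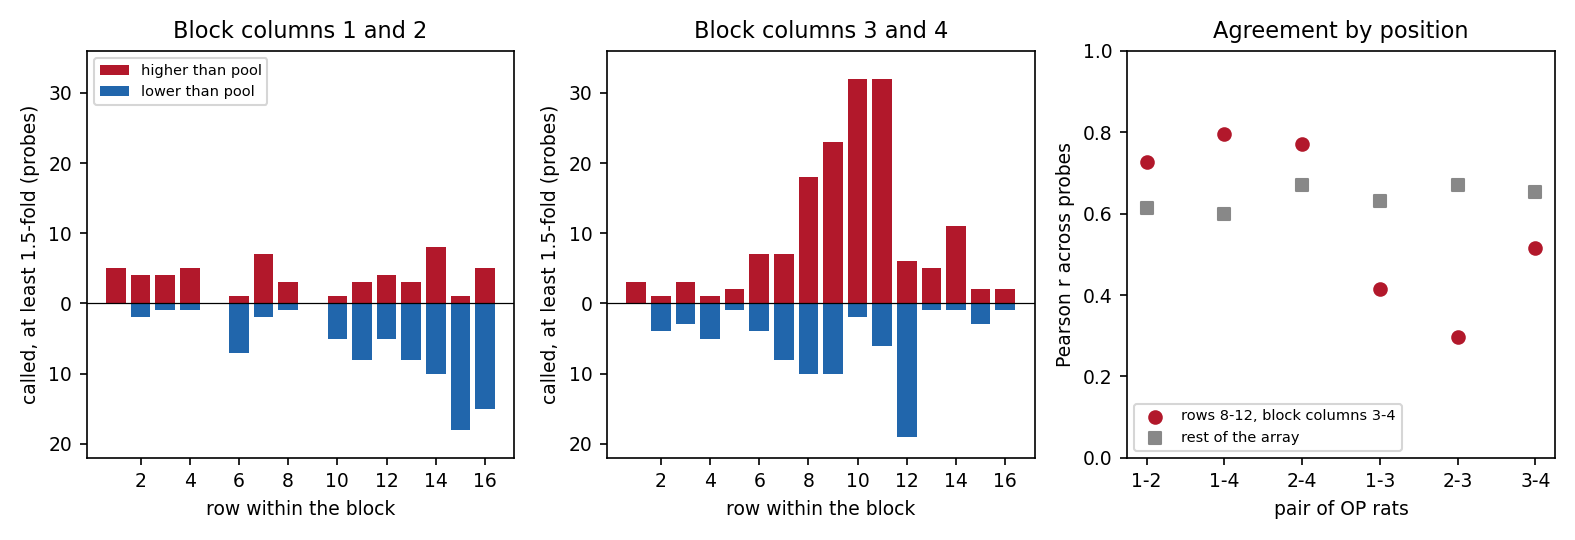
Position on the array of the larger OP differences and of the agreement between rats. The left and middle panels count the called probes at least 1.5-fold higher (red, upward) or lower (blue, downward) by row within the block, for block columns 1 and 2 and for columns 3 and 4, where rows 10 and 11 hold 32 higher probes each; the right panel gives Pearson's r of each pair of OP rats inside rows 8 to 12 of block columns 3 and 4 (red circles) and elsewhere (grey squares), where the pairs with OP3 are lowest inside, at 0.30 to 0.51.

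Over the array as a whole, spots close together in a row were weakly alike. The share called ran from 27.8% to 46.8% over the 48 blocks, and block medians of the OP ratio from -0.08 to 0.13. In row 1 of the blocks the share called was 59.9% in block columns 1 and 2 and 46.7% in columns 3 and 4. The mean ratio of a spot correlated with that of the next spot in its row at r = 0.19, with the spot 8 columns on at 0.10 and with the spot in the next row at 0.03. Of 3864 called spots with a tested right neighbour, 1704 (44.1%) had a called neighbour, against 38.2% called among all tested probes. Of the 1704, 1150 (67.5%) went the same way, where all calls together were 2132 higher and 2212 lower. Neither difference was tested.

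Signal limits touched few of the called probes. Both channels were above background on all 4 OP arrays at 10112 tested probes, of which 39.1% were called, and 31.2% of the other 1250 were. Of the 370 probes called at least 1.5-fold from the pool, 344 had signal in both channels throughout. At 15 probes Cy3 was above background on all 4 arrays and Cy5 on none. All were called higher, against 18.8% of all tested probes, a direction that the choice of these probes favours. Their ratios are only bounds, and all 15 entered the test only because Cy3 was detected. No tested probe showed the reverse. At the bright end, 23 spots reached 65000 on an OP array, close to the top of the scale, and 4 of them were among the 370.

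The OP arrays were set against the OR arrays in 4 measures of 1 value per array. The percent of probes at least 1.5-fold from the pool was 5.36 ± 2.74 in OP and 3.58 ± 1.28 in OR (SD, n = 4 each, exact two-sided permutation p = 0.343). The median absolute ratio was 0.16 ± 0.03 against 0.13 ± 0.02 (exact permutation p = 0.20). The slope of each rat on the mean of the other 3 rats of its group was 0.85 ± 0.25 against 0.61 ± 0.07 (exact permutation p = 0.114). The median absolute ratio of intensity group 10 minus that of group 1 was 0.07 ± 0.07 against 0.00 ± 0.07 (exact permutation p = 0.257), a measure added after the data were seen. None of the 4 passed, with an adjusted p of 0.343 in each, which does not show that the groups were alike, and slides and rats cannot be told apart in this comparison.

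The authors' deposited table, with its sign turned and its unknown log base taken as 2, gave a similar picture for OP. Of its 12288 rows, 10111 could be tested, and limma called 3383 (33.5%), 1529 higher and 1854 lower. At least 1.5-fold was reached by 326 of them, and r between OP rats averaged 0.59. The table's rows carry 2 kinds of name, whose meaning is not given in the sources used here. Among rows beginning with c, 608 of 1481 (41.1%) were called and 67.3% had the same sign in all 4 rats, and among rows beginning with rn 2775 of 8630 (32.2%) and 56.7%.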

How the data were processed

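Per the file headers, the deposited scanner files hold, for each channel of each array, ImaGene spot and background intensity, neither background-subtracted nor normalized, with a flag for each spot. The header gives version 5.1, whereas the series text names 4.2 and 2 scanners. The deposited table holds, per the labels and the series text, a background-subtracted, LOWESS-normalized log ratio by the authors, used here as log2 although its base is not given in the sources used here; the median of its OP columns, sign turned, was -0.00 in OP1, -0.02 in OP2, -0.01 in OP3 and -0.03 in OP4. Its scale is also unsettled, since regressing it on the scanner ratio gave slopes of -1.23 to -0.79 over the OP arrays.

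In limma 3.58.1 under R 4.3.3, the signal mean of a spot was corrected for its background median by normexp (offset 50), and log2(Cy3/Cy5) was normalized within arrays by a global loess curve. Values carrying the manual flag 1 were dropped. Detection meant a signal mean over 2 background SDs above the mean background. A probe entered the test if it had at least 3 values per group and was detected either in Cy3 on all arrays of OP or of OR, or in Cy5 on a share of arrays of 0.5 or more. All 8 arrays entered 1 limma model (6 residual and 2.75 prior degrees of freedom) with Benjamini-Hochberg adjustment. No spot is marked as a control, and each spot counts as 1 probe. Some spots at the same place in different blocks read alike. The mean OP ratio was -0.41 at Sr01Sc01R01C07 and -0.40 at Sr01Sc02R01C07, and 0.27 at both Sr01Sc01R01C12 and Sr01Sc02R01C12. Whether a probe was printed in more than 1 block was not tested, so the counts of probes may hold repeats. The fit was tested on simulated data. Array measures were compared over the 70 assignments of 8 arrays. The number of arrays limits the precision.

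Spots were named by rule (largest mean ratio and smallest p in each direction, same sign and detected in both channels on all 4 OP arrays). The lists of genes and cell markers that had been planned found no use because no spot is named. The members, rules and lists were chosen with earlier results of these data known, and the stretch of rows 8 to 12 in block columns 3 and 4 and the limit of 0.3 were chosen after seeing the values. OP and OR rats share the numbers 1 to 4. Deviations of same-numbered rats from their group means correlated at 0.19, -0.06, 0.07 and 0.04, so the numbers were not taken as pairs. The alternatives tried were other normalizations, background corrections, filters and signal statistics, fits without 1 rat, by quantification day, with OP alone and with a replicate block, and the deposited values.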

Additional observations from a re-analysis of the deposited data

Results flagged for a closer look

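Groups of 4 values were examined for a value far from the others, in which the gap to the nearest value exceeds 0.829 of the range. This held for 4 of the 28 groups examined, where chance marks about 5% of groups. OP1 had a median Cy3 signal of 347, with the nearest OP array at 260.4, and a median Cy3 background of 171, with the nearest at 89. OP2 had 94 spots with the manual flag, with the nearest OP array at 17. At spot Sr03Sc02R11C09, OP3 read -0.80 while the nearest rat, OP1, read -1.64. The causes were not tested.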

How the results depend on the processing

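The count of 4344 called probes stayed within 1.5 times its value under every alternative that kept all 4 OP rats, from 3383 in the deposited table to 6101 with median centring (2621 higher, 3480 lower). It ran from 2766 (without OP4) to 3704 (without OP3) with 1 rat left out, and was 1797 and 1838 on the arrays of the first and the second day alone, with 2 arrays each. A replicate block, added although the numbers do not pair the rats, gave 3931 calls and 372 at 1.5-fold. The count of 370 at least 1.5-fold was 846 with median centring, 752 with an offset of 0, 201 (without OP4) to 510 with 1 rat left out, and 212 without rows 8 to 12 of block columns 3 and 4, a setting added after seeing the data. The mean r of 0.62 was 0.768 with median centring. The share of same-sign probes was 67.9% with median centring, 56.9% with no background correction, 60.0% where every array had signal in both channels, 56.4% with no filter, 59.9% without the stretch, and 64.9% to 67.7% with 1 rat left out, where only 3 signs must match. The difference of 0.08 in median size between intensity groups 10 and 1 was turned by median centring (-0.0307) and by an offset of 0 (-0.0715). Under median centring 55 probes instead of 149 were high in OP1, OP2 and OP4 with OP3 within 0.3, 50 of them in the stretch, and 129 to 175 under the other normalizations and background corrections. Where not stated, the cause was not tested. The 4 named spots kept their direction and side of the threshold in all 60 alternative values, with a highest limma adjusted p of 0.0177. They were picked as extremes from these same arrays, so the choice itself favours this. No array measure changed its side of the threshold.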
